A study of Mus musculus with 14 samples.

Results

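The miR-34 family was followed through 14 mouse small RNA libraries. Its members were taken by name from the deposited table of counts per mature microRNA (miRNA): mmu-miR-34a-5p, mmu-miR-34a-3p, mmu-miR-34b-5p and mmu-miR-34c-5p, 4 of 1250 lines. Exosomes, small vesicles released into the culture medium, gave 4 libraries from macrophages stimulated with the cytokine interleukin 4 (IL4) and 4 from unstimulated control macrophages, and cell lysates gave 3 libraries of each kind. The labels give bone marrow as the source of every library, name excised bone as the tissue and call the controls wild type; IL4 is named in the titles alone, with no dose or duration. Within a compartment each date in the titles held 1 IL4 and 1 control library, and whether the libraries of a group stem from separate animals or cultures is not stated. The p-values below thus cover library-to-library spread alone, some or all of which may be technical.

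The miR-34 miRNAs are direct transcriptional targets of the tumour suppressor p53. Mir34a forms a gene of its own, whereas Mir34b and Mir34c are cut from a shared transcript, and together they repress cell cycle and survival genes such as Cdk6, Met, Bcl2 and the Notch receptors. In macrophages miR-34a is known as a brake on inflammatory cytokines and as a repressor of the cholesterol exporter Abca1, while miR-34b and miR-34c are best known from testis and multiciliated epithelium, as are their miR-449 relatives.

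The sequences below show what the lines share, since a miRNA finds its targets chiefly through its seed, bases 2 to 8, given in capitals. They are RefSeq sequences on GRCm38.p6, written 5′ to 3′, and 3 of the 4 members had a mature entry there, all but miR-34c-5p.
miR-34a-5p: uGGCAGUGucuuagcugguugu
miR-34b-5p: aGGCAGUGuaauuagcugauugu
miR-449a-5p: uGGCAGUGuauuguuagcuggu
miR-449c-5p: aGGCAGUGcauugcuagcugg
miR-34a-3p: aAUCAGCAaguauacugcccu
miR-34b-3p: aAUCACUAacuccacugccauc
miR-34c-3p: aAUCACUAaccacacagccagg
Among the mature miRNAs of that table, 4 carried the seed of miR-34a-5p: miR-34a-5p and miR-34b-5p, and miR-449a-5p and miR-449c-5p of another gene cluster. For lack of an entry miR-34c-5p is missing from these, and the Mir34c hairpin below holds the same seed. The 3p arms fell into other seed groups, with miR-34a-3p alone in its own and miR-34b-3p and miR-34c-3p sharing one. From base 2 on, miR-34a-5p was identical to miR-34b-5p and to miR-449a-5p up to base 9, and the longest run of bases it shared was 8 with miR-34b-5p and 9 with miR-449a-5p. The sequences of miR-34b-3p and miR-34c-3p differed at 5 of 22 bases. The 5p arms of the b and c genes look closer to each other in the hairpins below. They could not be compared as mature sequences, since miR-34c-5p had no entry. Reads of these 5p arms could pass between the lines of the b and c genes where the counting allowed mismatches, which the labels do not state.

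The hairpins from which the 3 genes' miRNAs are cut each held the seed of miR-34a-5p exactly once, shown in capitals.
Mir34a: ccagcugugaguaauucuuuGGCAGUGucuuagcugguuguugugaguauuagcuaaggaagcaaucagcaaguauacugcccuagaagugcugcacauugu
Mir34b: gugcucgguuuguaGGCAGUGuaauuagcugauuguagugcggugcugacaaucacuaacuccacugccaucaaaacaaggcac
Mir34c: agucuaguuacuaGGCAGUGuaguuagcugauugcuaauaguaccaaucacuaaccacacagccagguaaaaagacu
Mir34a lies at chr4:150068454-150068555 on the plus strand, with miR-34a-5p at chr4:150068473-150068494 and miR-34a-3p at chr4:150068517-150068537. Its last 17 bases overlap an exon of Gm37795, a same-strand transcript that still awaits experimental support. Mir34b lies at chr9:51103562-51103645 and Mir34c at chr9:51103034-51103110, both on the minus strand and 451 bases apart. Both sit within the span of the plus-strand gene Btg4, in its introns and opposite to its direction. The related Mir449c (chr13:113035983-113036091) and Mir449a (chr13:113037534-113037624) lie on the plus strand in introns of Cdc20b, a gene of the same strand.

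Total miRNA counts ran from 28417 to 411671 in exosome libraries and from 3941480 to 6792079 in lysates, so 3 counts, the limit that a count of 0 allows, stood for 7.29 to 105.6 CPM (counts scaled to a library total of 1000000) in an exosome library and for 0.442 to 0.761 CPM in a lysate. Read numbers are not independent molecules, and such limits and all intervals on counts cover counting error only. The 5 macrophage and myeloid markers fixed for this check (miR-223-3p, miR-142a-3p, miR-142a-5p, miR-155-5p and miR-21a-5p) were counted in every group and took 21.4 to 31.8% of IL4 exosome, 21.8 to 28.9% of control exosome, 34.3 to 44.7% of IL4 lysate and 28.5 to 34.7% of control lysate counts. Markers of some other cells were more frequent in exosomes than in lysates. The 3 erythroid markers took 2.15 to 2.99% of IL4 and 2.84 to 5.45% of control exosome counts, against 0.0119 to 0.0151% of IL4 and 0.0117 to 0.0210% of control lysate counts. The 2 endothelial markers took 0.410 to 1.59% and 0.686 to 2.75% of IL4 and control exosome counts, against at most 0.00326% and 0.00339% of IL4 and control lysate counts. The 7 epithelial markers took 0.0360 to 10.5% and 0.0849 to 4.89% of IL4 and control exosome counts, against at most 0.0200% and 0.0267% of IL4 and control lysate counts. The lymphocyte marker miR-150-5p took 0.0639 to 0.137% and 0.0656 to 0.187% of IL4 and control exosome counts, against at most 0.00200% and 0.00281% of IL4 and control lysate counts.

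The family's reads were almost all miR-34a-5p. This guide strand had 42812 counts over the 14 libraries and a count in each of them, against 230 for its partner miR-34a-3p, 126 for miR-34c-5p and 6 for miR-34b-5p. Among the 5 lines miR-34a-5p, miR-34b-5p, miR-34c-5p, miR-449a-5p and miR-449c-5p it took 98.6 to 99.1% of counts in IL4 lysates and 99.4 to 99.8% in control lysates. By count it stood between rank 50 and 56 of all lines in IL4 lysates and between 57 and 64 in control lysates.

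In exosomes miR-34a-5p had 319.8, 415, 449 and 417 CPM in IL4 replicates 1 to 4, from 16, 31, 185 and 32 counts. In control exosomes it had 282, 552, 457 and 601 CPM, from 8, 30, 91 and 22 counts. The values overlapped, and replicate 1 was the lowest at either treatment. In lysates it had 1369, 1256 and 1360 CPM in IL4 replicates 1 to 3 (8012, 4952 and 6986 counts) and 1231, 1279 and 1212 CPM in control replicates 1 to 3 (7081, 8688 and 6678 counts). Every exosome library lay below every lysate, and in lysates the highest control lay above the lowest IL4 library. The number of all lines that parted exosomes from lysates in this way was not counted, so this alone does not set miR-34a-5p apart.

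**Figure D1:**
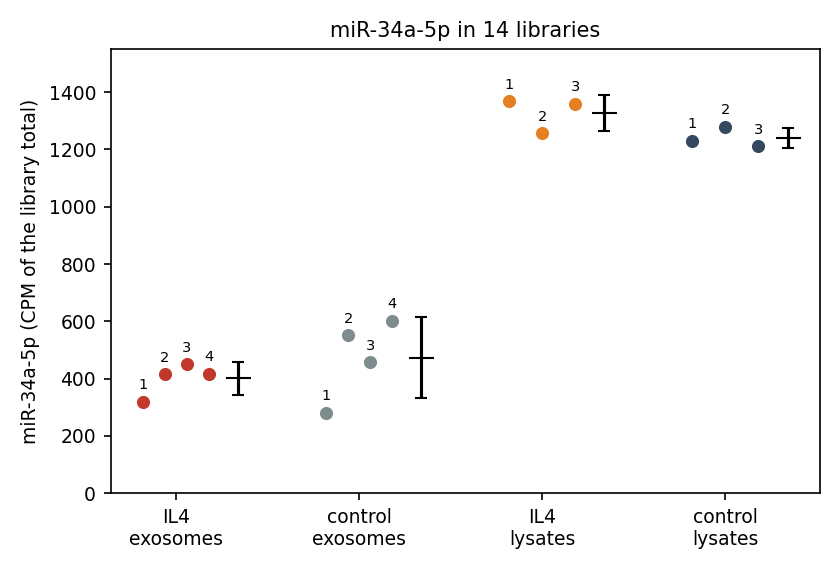
Level of miR-34a-5p in CPM of the library's total; each point is 1 library with its replicate number, and the black bars give the group mean and SD (n = 4 for exosomes, n = 3 for lysates). All 8 exosome libraries sit at or below 601 CPM and all 6 lysates at or above 1212 CPM.

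The first comparison asked whether IL4 stimulation of the cells altered the family in their exosomes. The level of miR-34a-5p averaged 400.4 ± 56.0 CPM in IL4 exosomes and 473 ± 141 CPM in control exosomes (SD, n = 4 each), with the IL4 library above its same-date control at 1 of 4 dates. Its log2 fold change on the TMM scale, which corrects for differences in composition between libraries, was -0.08 (SE 0.30, 95% confidence interval -0.75 to 0.58; edgeR's quasi-likelihood test with Benjamini-Hochberg adjustment, adjusted p = 0.935). No difference was detected, and the interval is wide enough to hold changes in either direction. In this comparison 0.549% of the 182 lines tested were called. The value changed sign with the scale and the libraries used, from -0.24 with the library totals as the scale to 0.23 without control replicate 4. It was not called in any of 14 alternatives.

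In the cells, miR-34a-5p averaged 1328 ± 62.5 CPM in IL4 lysates and 1241 ± 34.7 CPM in control lysates (SD, n = 3 each) with the IL4 library above its same-date control at 2 of 3 dates. The log2 fold change was 0.30 (SE 0.18, 95% confidence interval -0.11 to 0.71, edgeR adjusted p = 0.584), and it was positive in all 12 alternatives, from 0.10 to 0.36, without a call. In lysates 7.22% of 443 lines were called, 26 higher (5.87%) and 6 lower (1.35%), or 8 and 6 with the library totals as the scale, which moved the median of all lines by -0.19. The difference between the IL4 effects in exosomes and in lysates was -0.24 for miR-34a-5p (SE 0.37, 95% confidence interval -1.04 to 0.57, edgeR adjusted p = 0.9999). In that test of the difference 0% of 338 lines were called, with 14 lines at an unadjusted p under 0.05 and 0 calls by DESeq2.

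The larger contrast lay between compartments. With IL4, miR-34a-5p had a log2 fold change of -2.43 in exosomes against lysates (SE 0.27, 95% confidence interval -3.00 to -1.86, edgeR adjusted p = 8.14e-06), which is 5.38-fold lower in exosomes. In controls it was -2.19 (SE 0.27, 95% confidence interval -2.77 to -1.62, edgeR adjusted p = 1.74e-05), or 4.57-fold lower. Exosomes and lysates differed widely in general: 49.1% of 338 lines were called with IL4 (30.2% higher and 18.9% lower) and 50.9% in controls (29.3% higher and 21.6% lower). Among the lines tested, 9 in IL4 samples and 17 in controls had a log2 fold change as low as that of miR-34a-5p or lower, itself included.

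The size of this fall depended on the scale. With the library totals as the scale it was -1.72 with IL4 and -1.38 in controls, and that scale moved the median of all lines by 0.69 and 0.80; the lines called higher and lower were then 127 and 12 with IL4 and 126 and 16 in controls. Taken relative to the median of all lines, miR-34a-5p stood at -2.42 with IL4 and -2.02 in controls on the TMM scale, and at -2.40 and -2.01 with the library totals. It was called lower in each of 19 alternatives for either treatment. An exact two-sided permutation test of the CPM of exosome against lysate libraries gave p = 0.0286 for either treatment, the smallest that 4 against 3 libraries allow, and adjusted p = 0.152 over the 16 such tests of the 4 members. CPM are shares of a library, so more RNA of other kinds and less miR-34a-5p cannot be told apart, and in bulk samples neither can fewer cells of a type and less RNA per cell. The summed shares of the erythroid, endothelial and epithelial markers and the share of miR-150-5p given above were higher in exosomes, and their part in this result was not tested. Not every epithelial marker was higher at either treatment. In controls miR-141-3p averaged 1.26 ± 2.51 CPM in exosomes, from 1 count, and 3.72 ± 1.02 CPM in lysates (SD, n = 4 and n = 3). With IL4 it averaged 48.2 ± 88.0 CPM in exosomes, from 10 counts, and 2.59 ± 0.288 CPM in lysates. For miR-200c-3p the direction in controls depended on the scale. It averaged 122 ± 124 CPM in control exosomes and 77.2 ± 14.5 CPM in control lysates. On the TMM scale its log2 fold change was -0.33 in controls (SE 0.94, edgeR adjusted p = 0.781) and 0.38 with IL4 (SE 0.89, edgeR adjusted p = 0.751). Exosomes and lysates shared no date and differed in depth, so compartment, date and depth cannot be told apart here.

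**Figure D2:**
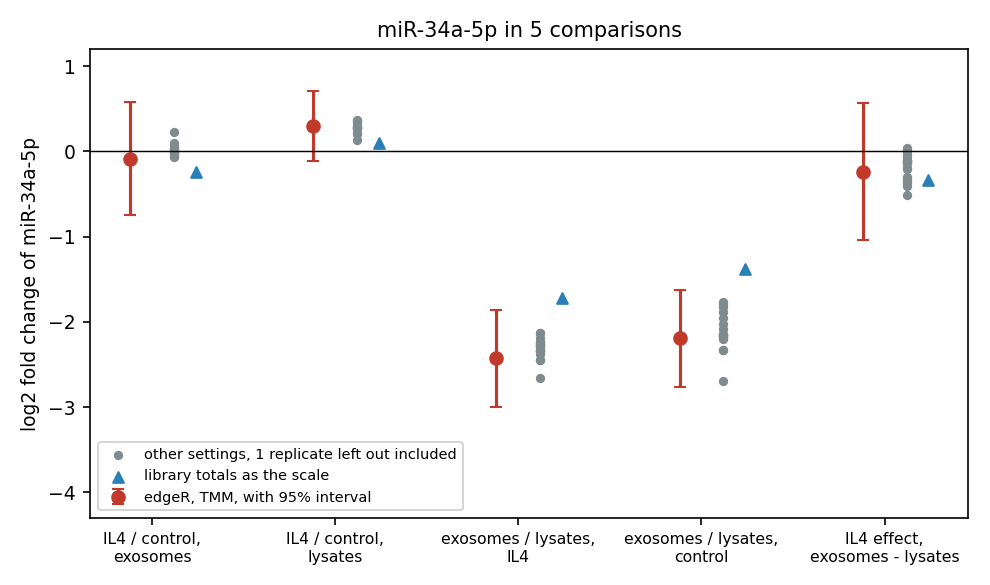
Log2 fold change of miR-34a-5p in 5 comparisons: red points with bars are edgeR values with 95% confidence intervals, grey points other settings including those without 1 replicate, and blue triangles the library totals as the scale. The exosome to lysate values lie below 0 in every setting, at -2.43 with IL4 and -2.19 in controls for edgeR, while the IL4 values lie near 0.

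The passenger strand miR-34a-3p comes from the other arm of the same hairpin and is normally degraded once the guide strand is loaded. In lysates it had 8.03, 4.57 and 5.26 CPM in IL4 replicates 1 to 3 (47, 18 and 27 counts) and 11.0, 6.63 and 3.81 CPM in control replicates 1 to 3 (63, 45 and 21 counts). The groups overlapped, and control replicate 1 was the highest of the 6. The log2 fold change was -0.05 (SE 0.42, 95% confidence interval -1.01 to 0.92, edgeR adjusted p = 0.986). In exosomes it was counted in 3 of 8 libraries: 5 counts in IL4 replicate 3, and 3 and 1 counts in control replicates 1 and 2. That was too few for the filter on low counts, and the pooled level was 8.16 CPM in IL4 exosomes (95% Poisson interval 2.65 to 19.03) and 12.6 CPM in control exosomes (3.42 to 32.2).

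The 3p arm's share of all miR-34a counts was 0.583, 0.362 and 0.385% in IL4 lysates and 0.882, 0.515 and 0.313% in control lysates. Group means were 0.443 ± 0.122% with IL4 and 0.570 ± 0.288% in controls (SD, n = 3 each). Over all exosome libraries the 3p arm made up 9 of 424 counts, or 2.12% (exact 95% binomial interval 0.9751 to 3.99%), against 221 of 42618 counts, or 0.519% (0.453 to 0.591%), over all lysates. Without control exosome replicate 1, in which 3 of 11 counts were of the 3p arm, the exosome share was 1.45% (0.535 to 3.14%). The mean share in control exosomes was 7.62 ± 13.2% (SD, n = 4), and 1.08% without that library; in IL4 exosomes it was 0.658 ± 1.32% (SD, n = 4), and 0 without replicate 3. Pooled over treatments, the level of miR-34a-3p in exosomes was 1.44 times that in lysates (95% counting interval 0.651 to 2.79), whereas that of miR-34a-5p was 0.347 times (0.314 to 0.382). These ratios are on the scale of library totals and were not tested over samples.

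**Figure D3:**
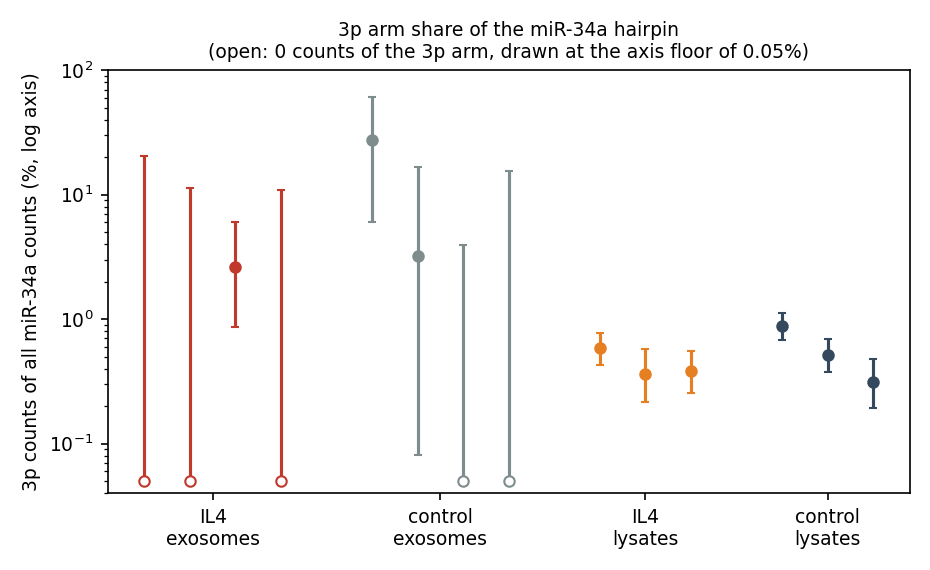
Share of 3p arm counts among all miR-34a counts per library, in percent on a log axis, with exact 95% binomial intervals; libraries stand in replicate order and open symbols mark 0 counts of the 3p arm. Lysates lie between 0.313 and 0.882% with narrow intervals, while the exosome intervals cover that whole range in 6 of 8 libraries.

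The lines of Mir34b and Mir34c had few counts, and 2 of the members come from these genes. In IL4 lysates miR-34c-5p had 4.27, 4.06 and 6.03 CPM (25, 16 and 31 counts) and in control lysates 4.17, 2.36 and 1.996 CPM (24, 16 and 11 counts). The IL4 library was the higher at 3 of 3 dates, while the groups overlapped on this scale of library totals. On the TMM scale they did not overlap. There the exact permutation test gave p = 0.1, the smallest that 3 against 3 libraries allow, and adjusted p = 0.381 over 16 tests. How many of all lines parted in this way was not counted. The log2 fold change of miR-34c-5p was 1.0 (SE 0.46, 95% confidence interval -0.06 to 2.05, edgeR adjusted p = 0.382), and it ran from 0.63 to 1.25 in 11 alternatives without a call. In exosomes miR-34c-5p had 3 counts, all in IL4 replicate 2, and 0 of 318399 counts in controls, which allows up to 9.42 CPM. At the lysate level 2.96 counts would have fallen in the IL4 exosomes and 0.899 in the control exosomes, so a lower exosome level was not detectable at this depth. The pooled ratio of exosomes to lysates was 1.01 with IL4 (95% counting interval 0.204 to 3.09), and the interval in controls reached up to 4.25.

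Of the 4 members miR-34b-5p was the rarest. It had 0 counts in the 3 IL4 lysates, which allows up to 0.201 CPM, and 1, 2 and 0 counts in control lysates. In exosomes it had 3 counts, all in IL4 replicate 3, the deepest exosome library, and 0 in controls. Over both treatments 3 exosome and 3 lysate counts gave a ratio of 35.4 on library totals, with a 95% counting interval of 4.74 to 264. That ratio rests on 1 exosome library. With no filter on low counts, edgeR called 238 of 1250 lines between IL4 exosomes and IL4 lysates, 160 higher and 78 lower. Among them miR-34b-5p was called higher in exosomes (edgeR adjusted p = 0.0486), on those same 3 counts.

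For Mir34b the opposite arm carried nearly all reads. In lysates miR-34b-3p had 41, 10 and 6 counts with IL4 and 6, 9 and 2 counts in controls, and the 3p arm made up 74 of 77 counts of that hairpin (96.1%, exact 95% binomial interval 89.0 to 99.2%). For Mir34c the 5p arm was the main one, with the 3p arm at 17 of 140 lysate counts (12.1%, 7.24 to 18.7%). In lysates miR-34c-3p had 0, 4 and 6 counts with IL4 and 2, 0 and 5 counts in controls. The hairpins therefore differed in which arm was counted: 5p for Mir34a and Mir34c, 3p for Mir34b. Whether 5p reads of Mir34b were counted on the line of Mir34c could not be checked. In exosomes miR-34b-3p had 3 counts, in IL4 replicate 3, and 4 counts, in control replicate 2, and miR-34c-3p had 0.

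**Figure D4:**
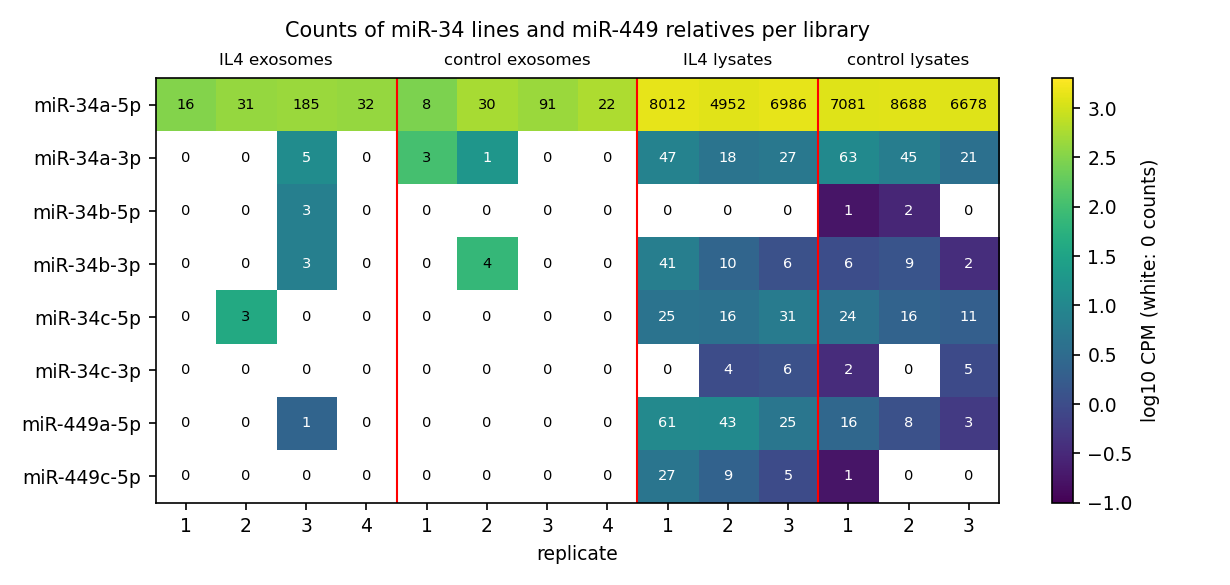
Counts per library of the 4 members, the other arms of Mir34b and Mir34c, and the miR-449 lines; each cell gives the count, and its colour the log10 CPM, with white for 0. All lines but miR-34a-5p have at most 5 counts in any exosome library. In lysates miR-449a-5p has 129 counts with IL4 and 27 in controls, and miR-449c-5p has 41 and 1.

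The miR-449 miRNAs, which share the seed of miR-34a-5p and are known to act with miR-34 in the making of motile cilia, were followed as relatives of the 4 members. In lysates miR-449a-5p had 61, 43 and 25 counts with IL4 (10.4, 10.9 and 4.87 CPM) and 16, 8 and 3 counts in controls (2.78, 1.18 and 0.544 CPM). The groups did not overlap, and the IL4 library was the higher at 3 of 3 dates. How many of all lines had groups that did not overlap was not counted, so this alone does not set miR-449a-5p apart. It rose 6.59-fold with IL4 (log2 fold change 2.72, SE 0.56, 95% confidence interval 1.43 to 4.01, edgeR adjusted p = 0.0256). In lysates miR-449c-5p had 27, 9 and 5 counts with IL4 and 1, 0 and 0 counts in controls. It was too low for the filter, and the pooled ratio was 49.6 with a 95% counting interval of 8.41 to 2005. With no filter on low counts, edgeR called 46 of 1144 lines, 36 higher and 10 lower. Among them were miR-449a-5p (edgeR adjusted p = 0.000144) and miR-449c-5p (edgeR adjusted p = 0.00120), while miR-34b-3p was not called (log2 fold change 2.03, SE 0.77, edgeR adjusted p = 0.190).

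The call of miR-449a-5p ended with the library totals as the scale (adjusted p = 0.0792) and without any 1 of 5 of the 6 lysates, all but control replicate 1, with log2 fold changes of 2.52 with the library totals and of 2.34 to 2.91 in those 5 fits. Without control replicate 1 the log2 fold change was 3.34 and the call held (edgeR adjusted p = 0.0270). Its value stayed positive in each of 11 alternatives, with adjusted p from 0.000144 to 0.193. The call held in 5 of the 11, among them DESeq2 (DESeq2 adjusted p = 0.000255) and the date as a block (2.81, SE 0.49, edgeR adjusted p = 0.00748). The 7 epithelial markers took 0.0161 to 0.0200% of counts in IL4 lysates and 0.0221 to 0.0267% in control lysates, and miR-205-5p was at 0 in both; the list of multiciliated cells held no lines but the miR-449 ones. In exosomes miR-449a-5p had 1 count, in IL4 replicate 3, and miR-449c-5p had 0. With IL4 the other 4 of the 5 lines summed above (miR-34b-5p, miR-34c-5p, miR-449a-5p and miR-449c-5p) added 113, 68 and 61 counts to those of miR-34a-5p in lysates, against 42, 26 and 14 in controls.

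Other miRNAs tied to p53 were compared by counts and medians. Of 12 miRNAs whose transcription or processing p53 is reported to raise, 11 had a line. With IL4, 0 of 7 tested in exosomes and 0 of 11 tested in lysates were called, against 0.549% and 7.22% of all lines. At an unadjusted p under 0.05 there were 0 in either compartment, and DESeq2 called 0. In exosomes 0 of the 7 had a positive log2 fold change, against 41.2% of all lines tested, with a median of -0.35 against -0.09 over all lines tested. That count depended on the fit. With DESeq2 miR-107-3p stood at 0.03, and miR-194-5p, miR-143-3p and miR-15a-5p each turned positive in a fit without 1 replicate. In lysates 4 of the 11 had a positive log2 fold change, against 50.3% of all lines tested, with a median of -0.09 against 0.00 over all lines. The 2 with the lowest unadjusted p in exosomes were miR-192-5p, a p53-induced miRNA that restrains the cell cycle (log2 fold change -0.60, SE 0.38, edgeR adjusted p = 0.804; 248 ± 39.8 CPM with IL4 and 427 ± 222 in controls, SD, n = 4 each), and miR-16-5p, which targets Bcl2 and cyclins (-0.35, SE 0.22, edgeR adjusted p = 0.804). In lysates they were miR-192-5p (0.35, SE 0.30, edgeR adjusted p = 0.760) and miR-22-3p (-0.30, SE 0.27, edgeR adjusted p = 0.760).

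Of 6 miRNAs reported to target the p53 mRNA itself, 4 were tested in exosomes and 0 called, against 0.549% of all lines tested. There miR-125b-5p stood at 0.70 (SE 0.40, edgeR adjusted p = 0.804) and miR-125a-5p at -0.41 (SE 0.35, edgeR adjusted p = 0.860). In lysates 1 of 6 was called, against 7.22% of all 443 lines tested. That was miR-125b-5p, which rose 2.46-fold with IL4 (log2 fold change 1.30, SE 0.25, edgeR adjusted p = 0.0224), at 9521 ± 260 CPM with IL4 and 4477 ± 1512 CPM in controls (SD, n = 3 each). The list's median was -0.18 in lysates and -0.09 in exosomes, against 0.00 and -0.09 over all lines tested. Its relative miR-125a-5p had -1.11 (SE 0.40, edgeR adjusted p = 0.216), and it was called lower with the date as a block (-1.16, edgeR adjusted p = 0.00221) and with no filter on low counts (-1.13, edgeR adjusted p = 0.000355). The call of miR-125b-5p ended with the library totals as the scale, in 1 fit of all libraries, and without IL4 replicate 2 or 3 or control replicate 1 or 2 (adjusted p from 0.0531 to 0.325), while the log2 fold change in those 6 fits lay between 1.09 and 1.30. It held in 6 of 12 alternatives, among them the date as a block (1.34, SE 0.14, edgeR adjusted p = 0.00167).

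**Figure D5:**
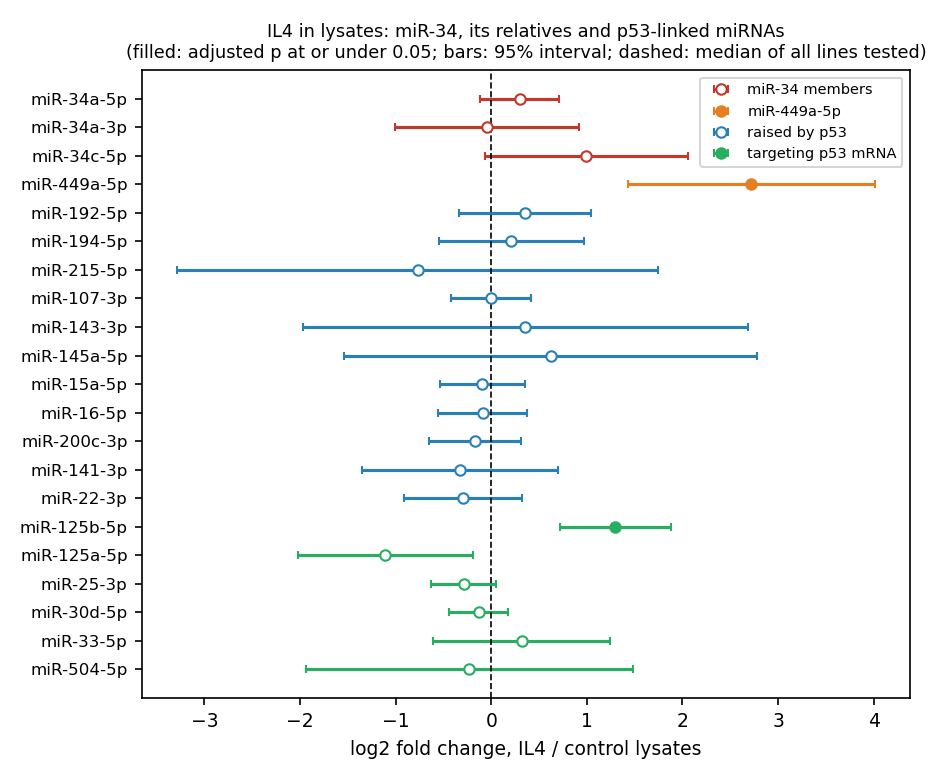
Log2 fold change of IL4 against control lysates with 95% confidence intervals for the tested miR-34 members, miR-449a-5p and both p53-linked lists; filled points have an adjusted p at or under 0.05 and the dashed line is the median of all lines tested. Of these, miR-449a-5p (2.72) and miR-125b-5p (1.30) are filled, and miR-34a-5p stands at 0.30.

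The lines whose profile over the 6 lysates was most like that of miR-34a-5p were miR-3068-5p, miR-27b-3p and miR-23b-3p. Likeness was the root mean square difference between log2 CPM profiles, TMM-scaled with a prior count of 2 and centred on each line's mean, and it was 0.08, 0.09 and 0.11 for these, against a median of 0.44 over the 442 lines compared. Their own log2 fold changes with IL4 were 0.20, 0.16 and 0.28 (SE 0.22, 0.15 and 0.15), and none was called. The 6 lysates share their dates and sequencing depth with all lines, and each library's TMM factor scaled all lines alike. In CPM of library totals miR-3068-5p averaged 76.9 ± 3.19 with IL4 and 76.9 ± 3.78 in controls. For miR-27b-3p it was 24947 ± 1090 and 25575 ± 770, and for miR-23b-3p 17999 ± 1022 and 17042 ± 894 (SD, n = 3 each). Lines of steady share take their TMM-scaled profile from those factors, so the likeness does not show that they vary together. Over all 14 libraries, where the compartments set the profile, the same lines ranked 166, 54 and 44 of 337, and let-7i-5p, miR-103-3p and miR-301a-3p were the most alike (0.47, 0.49 and 0.49).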

How the data were processed

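Exosomes were purified on an OptiPrep gradient, and small RNA from them and from lysates was prepared with a PerkinElmer NextFlex kit, per the labels' protocols; cutadapt and mm10 were used, per the submitters' processing notes. For aligner, counter, miRNA annotation and strand setting the entry is: not given in the sources used here. Raw counts per mature miRNA, without normalization, were deposited by the authors; trimming and counting set which reads reached a line and could not be changed here. Columns were matched to samples by title, and within a compartment libraries of 1 date share a replicate number. Fits used edgeR 4.0.16 in R 4.3.3 (filterByExpr, TMM, glmQLFit, glmQLFTest, two-sided, Benjamini-Hochberg over all lines tested, threshold 0.05): IL4 against control within each compartment on its own libraries, and the other contrasts in 1 fit of 14 libraries. DESeq2 1.42.0 was an alternative. The fit was tested on simulated data. A standard error is the size of the log2 fold change divided by the root of its F. Same-date libraries deviated together from their group means (r from 0.19 to 0.72 over lines), and the titles give the shared dates, so the date was tried as a block. Libraries of a group differed beyond sampling noise (chi-square per degree of freedom at least 21.0). Members, lists and the rule for named miRNAs (members, other arms, miR-449 lines, called or lowest-p list members, 3 most alike) were chosen with earlier results of these data known. No line was found for miR-449b, miR-449c-3p and miR-605-5p, which were not analysed here. Locations are from GENCODE M21 and RefSeq (GRCm38).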

Additional observations from a re-analysis of the deposited data

Results flagged for a closer look

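Among 11 sets of 4 exosome libraries checked, 8 had a library apart from the other 3. In 7 of the 8 the other 3 libraries had 0 counts of the line or arm, and the gap was then 1.0 of the range by construction, so the rate of about 1 in 20 that chance gives for measured values does not apply to them. The 6 CPM values were miR-34a-3p in IL4 exosome replicate 3 (12.1 CPM, gap 1.0), miR-34b-5p and miR-34b-3p in the same library (7.29 CPM each, gap 1.0), miR-449a-5p there (2.43 CPM, gap 1.0), miR-34c-5p in IL4 exosome replicate 2 (40.2 CPM, gap 1.0) and miR-34b-3p in control exosome replicate 2 (73.6 CPM, gap 1.0). The 3p arm share of miR-34a was highest in IL4 exosome replicate 3 (2.63%, gap 1.0, the others at 0) and in control exosome replicate 1 (27.3%, gap 0.882, from 3 of 11 counts). Each rests on 5 counts or fewer. The level of miR-34a-5p itself was not among them.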

How the results depend on the processing

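For miR-34a-5p, miR-34a-3p and miR-34c-5p no alternative changed a call: miR-34a-5p was called lower in exosomes than in lysates in each alternative (log2 fold change -2.66 to -1.72 with IL4, -2.70 to -1.38 in controls) and no member was called for IL4 or for the difference of the IL4 effects. Counts over all lines moved more. For IL4 in exosomes the 1 call became 6 with DESeq2, 0 with the library totals as the scale, 12 with no filter on low counts and 0 to 2 when 1 replicate was left out. For IL4 in lysates the 32 calls became 14 with the library totals, 4 in 1 fit of all 14 libraries and 2 to 34 without 1 replicate. With the date as a replicate block they became 50, and the block changed no call of a member (miR-34a-5p 0.30, adjusted p = 0.317 in lysates; -0.06 in exosomes). The list targeting the p53 mRNA, with 1 call in lysates, had 0 with the library totals and in 1 fit of all 14 libraries, 2 with no filter and with the replicate block, and 0 to 1 without 1 replicate. The difference of IL4 effects had 3 calls with no filter, against 0. Between exosomes and lysates DESeq2 called 120 lines higher and 57 lower with IL4 and 122 and 52 in controls, and RLE factors gave 111 and 50, and 109 and 47; DESeq2 moved the median of all lines by 0.30 and 0.41. The mean arm share without 1 replicate, added after seeing the data, ran from 0 to 0.877% in IL4 exosomes, 1.08 to 10.2% in control exosomes, 0.374 to 0.484% in IL4 lysates and 0.414 to 0.699% in control lysates. For alternatives that changed calls the cause was not tested. Depth limits the exosome values of the members: miR-34a-5p had 8 to 32 counts in 6 of 8 libraries, and the others at most 5 in any.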
